A study of Rattus norvegicus with 19 samples.

Results

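Adult Leydig cells, the testosterone-producing cells that lie between the seminiferous tubules of the testis, were compared directly with stem Leydig cells, the undifferentiated cells at the other end of the same lineage. The comparison took every array labelled as adult Leydig cells (n = 4) and every array labelled as stem Leydig cells (n = 5), 9 of the 19 arrays of the series, and all 31042 probe sets that are not controls. All cells came from Sprague-Dawley rats. Progenitor (n = 3) and immature Leydig cells (n = 4), the labelled stages in between, and bone stem cells (n = 3) entered the same fit and are used only to place values. The ages, the isolation and any culture of the cells are not stated in the labels or files, so that differences in how the groups were obtained and differences between stages cannot be told apart. The labels do not say whether the replicates came from separate animals or cultures, and p-values here rest on the spread among the arrays of a group, part or all of which may be technical.

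In the adult testis luteinizing hormone binds its receptor on Leydig cells, raises cyclic AMP and so drives cholesterol into mitochondria, where the side chain is cleaved to give pregnenolone. Enzymes of the endoplasmic reticulum then turn pregnenolone into testosterone. Stem Leydig cells are spindle-shaped cells that can divide and that carry receptors for platelet-derived growth factor (PDGF) but make little or no androgen.

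Values are hybridization signals on a linear scale, set by the authors to a common mean on each array. Changes are differences of log2(signal + 16), adult minus stem, with the standard error (SE) of a linear model, and a probe set was called where the adjusted p was under 0.05. Adding 16 damps differences among low signals, and signals below about 16 have no dependable order. Of the 31042 probe sets, 12978 (41.8%) were called, 6601 (21.3%) higher and 6377 (20.5%) lower in adult cells. Of 14217 named genes, each given by its brightest probe set, 7618 (53.6%) were called: 3930 (27.6%) rose and 3688 (25.9%) fell. The median change over those genes was 0.02. The groups did not overlap for 49.2% of the genes. These shares are the background against which the counts of the gene lists are read. Array medians lay between 21.6 and 27.7 in adult and between 21.4 and 24.6 in stem cells. Correlations over all probe sets were 0.975 to 0.988 within the adult arrays, 0.967 to 0.990 within the stem arrays and 0.802 to 0.830 between them.

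The labels were set against genes known to mark each end. Lhcgr, the receptor for luteinizing hormone, read 2195, 2075, 2319 and 2518 on the 4 adult arrays and 11.7, 9.27, 14.4, 15.4 and 9.22 on the 5 stem arrays. Insl3, the peptide hormone of Leydig cells, read 4407 ± 1007 (SD, n = 4) in adult and 15.7 ± 5.18 (SD, n = 5) in stem cells. Of the genes used to describe stem Leydig cells, the PDGF receptor Pdgfra (778 ± 195), the surface protein Thy1 (2040 ± 288) and the intermediate filament nestin, Nes (242 ± 55.0), had clear signals in the stem arrays. The LIF receptor Lifr (11.5 ± 3.28), the stem cell factor receptor Kit (5.11 ± 2.94) and the adhesion molecule Vcam1 (13.2 ± 3.76) were at the low end of the scale there. These 3 genes rose in adult cells, with log2 changes of 2.22 ± 0.14 (SE) for Lifr, 2.48 ± 0.29 for Kit and 6.34 ± 0.18 for Vcam1. The stem cells thus carried some but not all of these markers.

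The largest rises joined steroid enzymes to genes of lipid, amino acid and water handling. Cyp17a1, the enzyme that turns progestins into androgens, read 5299, 4472, 7277 and 4883 on the adult arrays and 1.56, 0.485, 0.845, 0.769 and 1.77 on the stem arrays, a log2 change of 8.31 ± 0.21 (SE, adjusted p = 6.06e-17). It lay at the low end of the scale in all stem arrays, so that the size of the change rests on the constant added: it was 11.4 with 1 and 6.39 with 64 in place of 16. The same holds for the other large changes, whose order is not dependable. Cyp11a1, the side-chain cleavage enzyme (7.04 ± 0.15), and Hsd3b1, the 3-beta-hydroxysteroid dehydrogenase (7.11 ± 0.29), stood beside it. Outside steroid synthesis the rise was as large for Ces1d, a carboxylesterase (7.83 ± 0.24), Hao2, a peroxisomal hydroxyacid oxidase (7.74 ± 0.21), and Ass1, which makes argininosuccinate from citrulline (7.72 ± 0.23). It was also as large for Acsbg1, an activator of long fatty acids (7.44 ± 0.22), the glycerol and water channel Aqp9 (7.07 ± 0.19) and Svs5, a seminal vesicle secretory protein gene (7.0 ± 0.17). On the 4 adult arrays these genes and Insl3 read between 2297 and 7277. All 10 were highest on adult replicate 3.

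**Figure D1:**
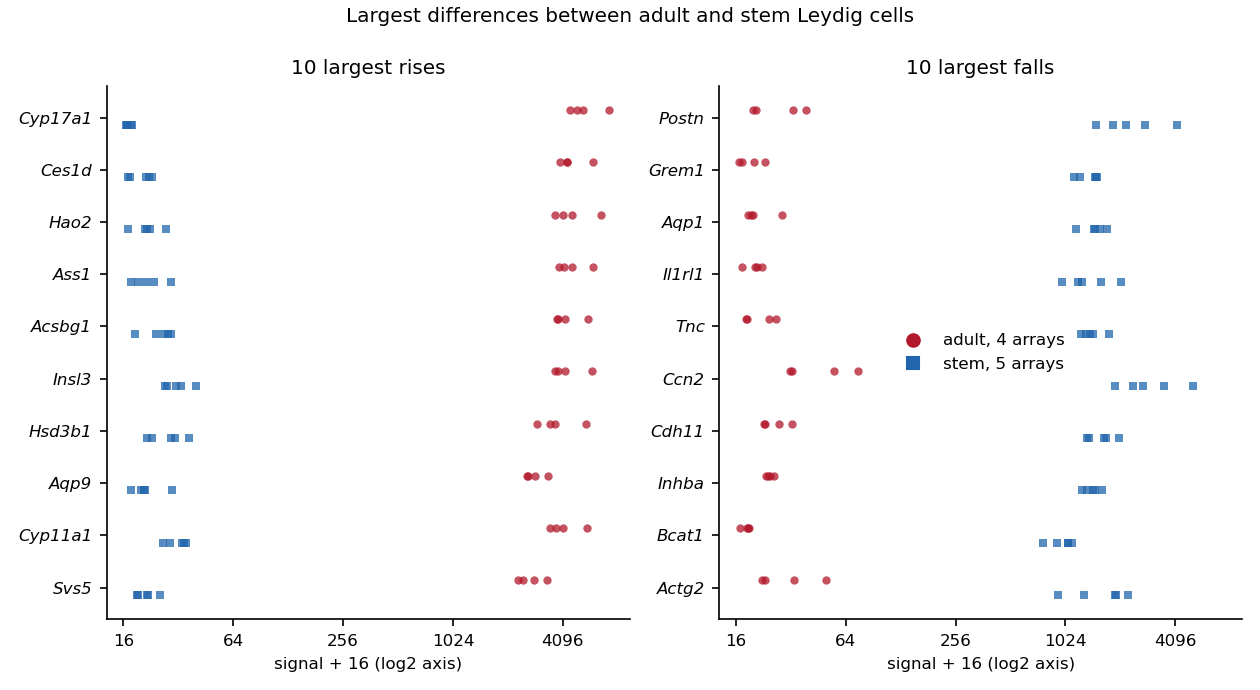
Signal plus 16 (horizontal, log2 axis) of the 10 genes with the largest rise and the 10 with the largest fall from stem to adult cells, 1 point per array. Circles are the 4 adult arrays and squares the 5 stem arrays; in each gene the groups lie far apart, with the lower group between 0.485 and 58.4 signal units before the 16 is added.

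Svs5 carries, in the 250 bases before its RefSeq start, both of the orphan receptor motifs searched for, and is printed here for that reason. The motifs were AAGGTCA and AAGGCCA, the letters to which the Leydig cell factor Nr5a1 is known to bind, read on both strands; they do not overlap in this promoter. Capitals mark the motifs, which begin 75 and 47 bases before the start (build GRCr8, chr3:173415271-173415520, + strand).
Svs5: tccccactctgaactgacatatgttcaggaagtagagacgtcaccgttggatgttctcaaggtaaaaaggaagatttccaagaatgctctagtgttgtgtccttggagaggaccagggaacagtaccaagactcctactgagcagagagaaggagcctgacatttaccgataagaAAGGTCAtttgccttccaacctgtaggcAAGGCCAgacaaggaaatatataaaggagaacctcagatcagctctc
AAGGTCA was held by 4.61% and AAGGCCA by 6.27% of 33469 RefSeq promoter windows. These shares, and all counts of windows given here, are over windows that run from 250 bases before to 50 after the start, longer than the stretches printed. Of the 10 genes with the largest rise, 9 had a window; 1 held AAGGTCA and 2, Svs5 and Acsbg1, held AAGGCCA. None of the 9 windows found for the 10 largest falls held either motif. Of 19 genes chosen as markers of either end, steroid genes among them, 12 had a window. None of these 12 held AAGGTCA, and 1, the mesenchymal factor Tcf21, held AAGGCCA. The match is a description of letters and not of binding.

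Most measured genes of the testosterone pathway rose. Of its 11 measured genes 9 rose and none fell, with a median change of 2.31. Cholesterol entry rose in all 3 of its genes. Star, which moves cholesterol to the inner mitochondrial membrane, read 3101, 2668, 3952 and 2883 in adult cells and 243, 1446, 391, 657 and 961 in stem cells. Star was thus well above the low end of the scale in every stem array, and its rise of 2.31 ± 0.59 (SE, adjusted p = 0.00288) was smaller and less even than that of the enzymes. Tspo, a mitochondrial protein that binds cholesterol, rose by 1.54 ± 0.23, and its ligand Dbi by 1.78 ± 0.18. Both were near or above 1000 in stem cells. The electron donor Fdx1 rose from 314 ± 67.9 to 4074 ± 840, while Por, the donor of the microsomal enzymes, read 276 ± 66.3 in stem and 330 ± 31.5 in adult cells and did not pass the test (0.27 ± 0.14, adjusted p = 0.140). Cytochrome b5, Cyb5a, which aids the lyase step of Cyp17a1, was at 580 ± 104 and 760 ± 55.7 (0.39 ± 0.13, adjusted p = 0.0163); with median centring its adjusted p was 0.102.

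Hsd17b3, which makes the last step to testosterone, read 576, 838, 629 and 489.9 on the adult arrays and 16.5, 13.9, 15.2, 8.85 and 16.01 on the stem arrays, a rise of 4.41 ± 0.20 (SE, adjusted p = 2.86e-13). The groups lay far apart. In the progenitors Hsd17b3 was at 52.5 ± 20.1 (SD, n = 3), below its adult level (adjusted p = 2.73e-09), whereas Cyp17a1, at 5127 ± 1395, did not differ there from its adult level beyond the test (adjusted p = 0.824). Its promoter window is printed because it is the gene of the terminal step and holds a match to the pattern TGANTCA, in capitals, 160 bases before the start (GRCr8, chr17:1032708-1032957, + strand).
Hsd17b3: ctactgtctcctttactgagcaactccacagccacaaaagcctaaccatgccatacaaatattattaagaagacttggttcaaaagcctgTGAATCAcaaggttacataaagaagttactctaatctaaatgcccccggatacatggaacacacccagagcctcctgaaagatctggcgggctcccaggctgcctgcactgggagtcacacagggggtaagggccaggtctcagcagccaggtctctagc
The pattern covers the AP-1 sites TGAGTCA and TGACTCA but is wider, and the letters matched in Hsd17b3, TGAATCA, are neither of them. TGANTCA, searched on both strands, was held by 7.33% of all windows. Of 19 genes chosen as markers of either end, 12 had a window and 3 held it: Hsd17b3, Hsd3b1 and Pdgfra. The full cyclic AMP element, TGACGTCA (1.83% of all windows), was in none of the 12. TGANTCA was also in 3 of 13 windows of smooth muscle markers, those of Mylk, Smtn and Actg2. It was in 1 of 9 windows both for the largest rises and for the largest falls.

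Genes of androgen and glucocorticoid metabolism rose more often than they fell. Of 27 measured genes 15 rose and 2 fell, with a median of 1.33. Hsd11b1, which interconverts active and inactive glucocorticoid, rose from 302 ± 162 to 3833 ± 795 (3.74 ± 0.28). Cyp2a1, a testosterone hydroxylase, and its close relative Cyp2a3 rose by 5.16 ± 0.23 and 5.03 ± 0.18; probe sets of such near copies can share signal. Cyp2a1 read 858, 474, 1190.5 and 957 on the adult arrays and 12.8, 6.83, 8.52, 5.20 and 5.20 on the stem arrays. Both genes were still low in the immature cells, at 22.9 ± 11.2 and 42.4 ± 16.3. The androgen-reducing enzyme Akr1c14 read 111 ± 27.9 in adult cells, a rise of 2.24 ± 0.27. Hsd17b12, a widely expressed dehydrogenase of fatty acid elongation, fell by 0.98 on the log2 scale.

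Hormone signalling changed in part of its genes. Of 36 measured genes 20 rose and 7 fell, with a median of 0.68. The prolactin receptor Prlr rose from 4.44 ± 1.84 to 1558 ± 526, and the growth hormone receptor Ghr from 22.6 ± 13.5 to 121 ± 22.0. Nr5a1 (steroidogenic factor 1), the nuclear receptor that drives steroid genes, read 77.4 ± 10.7 in stem cells and 1080 ± 53.4 in adult cells (3.56 ± 0.11). Its level in stem cells was above that in bone stem cells, 8.20 ± 3.14 (adjusted p = 2.84e-10 for that difference). Nr0b1 (Dax1), which represses steroid genes, rose more, by 4.86 ± 0.14, from 9.97 ± 1.42 to 736 ± 30.1. Nr2f2 (COUP-TFII), a mesenchymal nuclear receptor, read 977 ± 149 in stem and 714 ± 45.3 in adult cells (-0.43 ± 0.12, adjusted p = 0.00734). The mean of all its probe sets did not pass (-0.12, adjusted p = 0.578). The subunits of protein kinase A divided: the regulatory Prkar2b (4.23 ± 0.22) and the catalytic Prkaca (2.07 ± 0.23) rose, and the catalytic Prkacb fell by 0.67. The phosphodiesterase Pde4b, which breaks down cyclic AMP, fell by 1.36 and the adenosine receptor Adora2b by 1.88.

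Adult cells had higher signals for many, but not all, genes of cholesterol uptake and synthesis. For sterol synthesis 11 of 21 genes rose and 3 fell (median 0.54). The risers include Insig1, Srebf1 and Srebf2, which control the pathway and are not its enzymes. Dhcr7, the last enzyme of cholesterol synthesis, rose from 156 ± 37.5 to 1957 ± 380, and Insig1, which restrains the pathway, rose by 2.27 ± 0.17. The 3 that fell were enzymes: Fdps, the farnesyl diphosphate synthase, by 0.54, Sqle by 0.52 and Nsdhl by 0.32. For uptake, storage and export 19 of 36 rose and 7 fell (median 0.54). The lipoprotein receptor Scarb1 read 2675 ± 626 against 124 ± 12.6 (4.24 ± 0.14), the fatty acid transporter Cd36 rose by 6.68 ± 0.29, Apoc1 by 4.73 ± 0.23 and Apoe by 1.99 ± 0.20. Lpl, lipoprotein lipase, fell by 3.32, from 415 ± 98.2 to 28.6 ± 17.6.

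Genes of oxidative metabolism rose in most cases. Of 52 respiratory chain and ATP synthase genes 36 rose and none fell, but the changes were small, with a median of 0.53. The count was 16 of 23 for complex I, 4 of 4 for complex II, 2 of 6 for complex III, 5 of 9 for complex IV and 9 of 10 for ATP synthase. Sdha, a subunit of complex II, rose from 658 ± 41.8 to 1855 ± 172, and Ndufs3, a subunit of complex I, by 1.49 ± 0.11. Peroxisomal and fatty acid oxidation genes changed more: 36 of 45 rose and 3 fell, with a median of 1.75. Phyh, which hydroxylates phytanoyl-CoA in the first step of its breakdown in peroxisomes, rose by 4.35 ± 0.15. The mitochondrial enzymes Cpt2 and Etfdh rose by 3.08 ± 0.16 and 3.20 ± 0.12. Of the 3 that fell, Acsl1 dropped by 1.31 and Acsl4 by 1.68; both activate fatty acids, as Acsbg1 does. Of 13 measured peroxins, the proteins that build peroxisomes, 11 rose and none fell.

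Glycolysis did not follow. Of 20 glycolytic genes 7 rose and 7 fell (median 0.10), whereas 8 of 14 citrate cycle genes rose and 1 fell (median 0.65). Aldolase C, Aldoc, rose by 3.36 ± 0.17 and the lactate dehydrogenase subunit Ldhb by 2.33 ± 0.16. Enolase 2, Eno2, read 892 ± 86.1 in stem and 23.5 ± 7.38 in adult cells. The glucose transporter Slc2a3 fell by 3.47 and the subunit Ldha by 1.08. Pdk4, a kinase that inhibits pyruvate dehydrogenase, rose from 4.55 ± 3.72 to 419 ± 89.4.

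Glutathione transferases rose in most cases. Of 18 measured, 15 rose and 1 fell, with a median of 2.01. Gstm7 rose by 6.90 ± 0.18 and Gstm1 by 4.47 ± 0.22, to 4519.9 ± 1228, and the microsomal Mgst1 by 3.17 ± 0.27. The peroxide and superoxide enzymes were mixed (9 rose and 6 fell of 17). The secreted glutathione peroxidase Gpx3 read 1369.9, 1721, 804, 1365 and 1669.7 on the stem arrays and 32.9, 28.2, 23.6 and 22.4 on the adult arrays, a fall of 4.99, and the related Gpx7 fell by 2.48. Nqo1, a quinone reductase, fell by 2.45. Mt2A, a metallothionein, rose by 4.06 ± 0.28. Among other cytochromes P450, conjugation and aldehyde enzymes 23 of 48 rose and 6 fell. Cyp4f4 (5.79 ± 0.27), Cyp27a1 (4.37 ± 0.10) and Aldh1a1 (6.86 ± 0.48) rose, and Cyp2u1 fell by 1.75. Cyp1b1 was high at both ends, 1266 ± 197 in stem and 3502 ± 684 in adult cells.

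**Figure D2:**
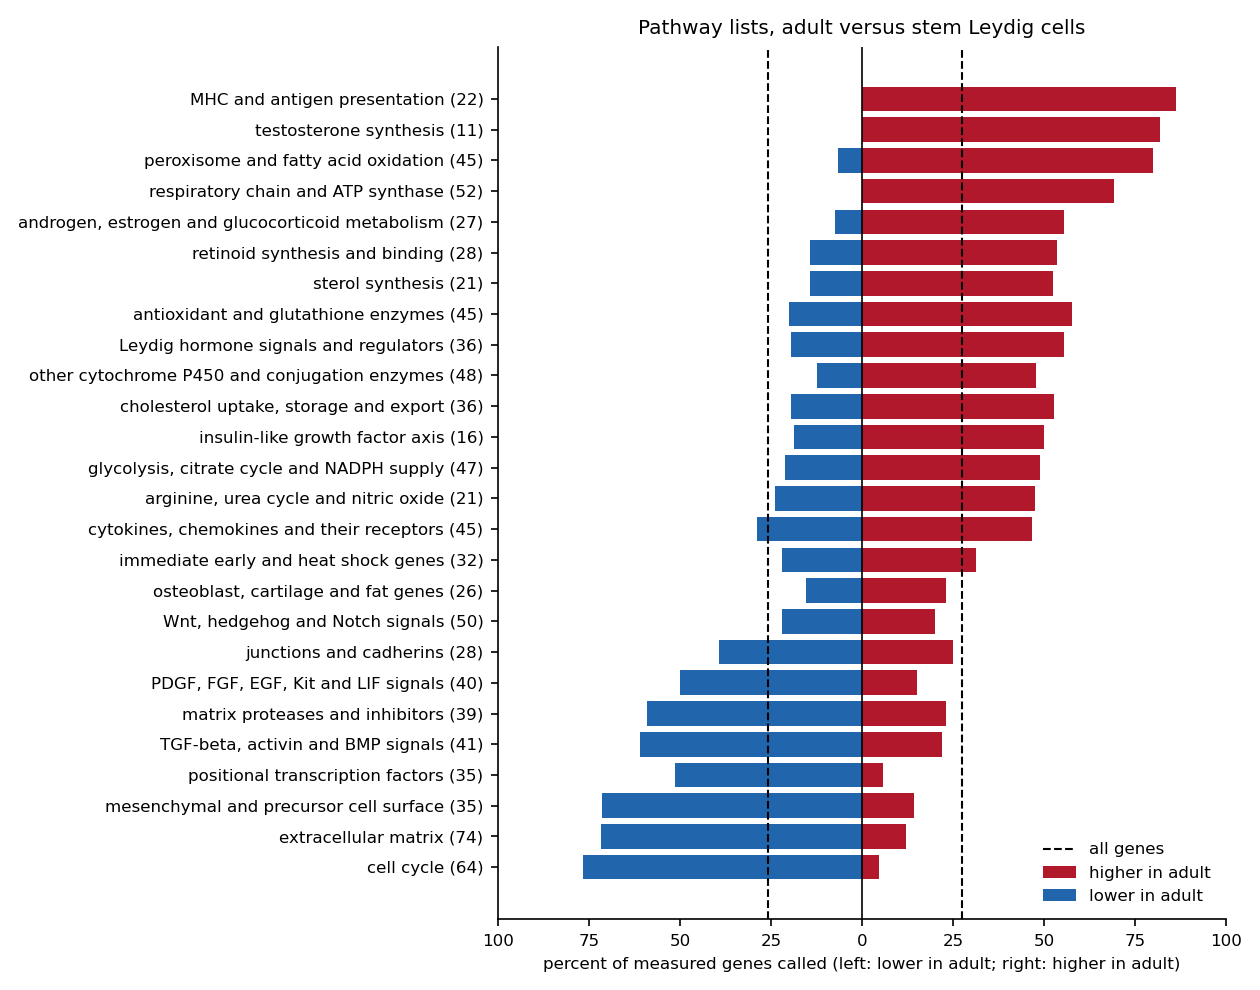
Percent of the measured genes of each of 26 pathway lists called higher (right) or lower (left) in adult than in stem cells, with the number measured in parentheses. Dashed lines give the shares over all genes, 27.6% higher and 25.9% lower; cell cycle, matrix and mesenchymal surface lists lie far to the left, and antigen presentation, testosterone synthesis, fatty acid oxidation and respiratory chain lists to the right.

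The stem end was marked by extracellular matrix. Of 74 measured matrix genes 53 fell in adult cells and 9 rose, with a median of -2.31. None of 19 collagens rose and 18 fell (median -3.04), and of 12 genes that process collagen 11 fell (median -2.80). Periostin, Postn, a matrix protein of growing connective tissue, read 4184, 1853, 2189.6, 1496 and 2796 on the stem arrays and 22.7, 16.9, 3.87 and 4.72 on the adult arrays. It fell by 6.46 (adjusted p = 4.93e-12), a size that rests on the constant added, since most of the adult values are near or below it: the change was -7.81 with 1 and -5.0 with 64. Tenascin C, Tnc, fell by 6.05, from 1424 ± 207 to 5.92 ± 4.27, fibronectin, Fn1, by 5.08, Col12a1 by 4.98 and the cross-linking enzyme Lox by 4.55. Col1a1 read 2651 ± 1068 in stem and 233 ± 142 in adult cells, and Col3a1 still read 869 ± 205 in adult cells. The collagen that was not called was Col4a5, of basement membranes (0.19 ± 0.21, adjusted p = 0.501). Among the exceptions, Sparcl1 rose by 4.11 ± 0.25 and vitronectin, Vtn, by 3.97 ± 0.28. Decorin, Dcn, read 1419.7 ± 318 and 1952 ± 124, and its rise of 0.48 ± 0.18 (adjusted p = 0.0359) was lost when any of several arrays was left out; without adult replicate 1 the adjusted p was 0.0719.

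Proteases and their inhibitors followed the matrix in part, with 23 of 39 lower and 9 higher (median -1.02). Mmp2, a gelatinase, fell by 4.77, from 1729 ± 447 to 48.0 ± 15.2, and the inhibitor Serpine2 by 5.56. The inhibitor Timp3 rose by 3.13 ± 0.27 and cathepsin S, Ctss, by 2.39 ± 0.28.

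Surface and cytoskeletal genes of mesenchymal cells fell in 25 of 35 cases and rose in 5 (median -1.81). Cadherin 11, Cdh11, read 1991, 1658, 1365, 1333 and 1699.8 on the stem arrays and 16.7, 11.6, 7.05 and 6.97 on the adult arrays, a fall of 5.93. Thy1 fell by 5.37, the collagen receptor Itga11 by 4.98, nestin by 2.64 and the receptor kinase Axl by 3.70. Vimentin, Vim, was not called: 3069 ± 985 in stem and 3799 ± 976 in adult cells (0.33 ± 0.22, adjusted p = 0.259). The 5 that rose include Vcam1 and the ectonucleotidase Nt5e (3.25 ± 0.15), both often used as markers of mesenchymal stem cells. Among junction genes 7 of 28 rose and 11 fell. N-cadherin, Cdh2, fell by 3.94 and the gap junction protein Gjc1 by 2.58, while the main Leydig cell connexin Gja1 was high at both ends, 2323 ± 286 and 3873 ± 813 (0.72 ± 0.16, adjusted p = 0.00107; 0.27 and adjusted p = 0.227 with quantile normalization). The tight junction protein Cldn11 rose from 9.72 ± 5.96 to 1443 ± 421.

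Contractile genes marked the stem end. Of 17 measured smooth muscle and myoid markers 15 fell in adult cells and none rose, with a median of -3.19. Their summed signal was 15953 to 33313 in stem and 2594 to 5487 in adult cells. Gamma-2 actin, Actg2, read 2230.3, 1273, 1927, 913 and 1889 on the stem arrays and 34.1, 7.12, 6.33 and 17.5 on the adult arrays (a fall of 5.70). Transgelin, Tagln, fell by 4.81, calponin 1, Cnn1, by 4.84 and alpha smooth muscle actin, Acta2, by 3.77. In the bone stem cells Acta2 read 1701 ± 488 and Actg2 3341 ± 704, and 3 of the 17 genes were called higher and 1 lower than in stem Leydig cells. The lower one was desmin, Des, an intermediate filament of muscle: it read 1094 ± 141 in stem Leydig cells, 24.8 ± 3.12 in bone stem cells (adjusted p = 1.08e-10) and 90.7 ± 69.3 in adult cells, where it fell by 3.57. In bulk samples fewer cells of a type and less RNA per cell cannot be told apart, and whether muscle-like cells in the stem samples have a part in this result was not tested.

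Of the 17 contractile genes 13 had a promoter window and 2, Acta1 and Cnn2, held a CArG box, the site of serum response factor, against 1.64% of all windows. Both are printed because they show that site, in capitals, in front of contractile genes. This search was added after the values had been seen. Of the 12 windows of lineage markers 1 held a CArG box, that of Nr5a1, which rose in adult cells. None of the 9 windows for the largest rises or the 9 for the largest falls held it. Skeletal actin, Acta1, fell by 2.99, from 152 ± 137 to 0.946 ± 0.868 (site 94 bases before the start; GRCr8, chr19:68784195-68784444, - strand). Calponin 2, Cnn2, fell by 3.19, from 1524 ± 356 to 155 ± 52.1 (site 71 bases before the start; chr7:10370313-10370562, - strand).
Acta1: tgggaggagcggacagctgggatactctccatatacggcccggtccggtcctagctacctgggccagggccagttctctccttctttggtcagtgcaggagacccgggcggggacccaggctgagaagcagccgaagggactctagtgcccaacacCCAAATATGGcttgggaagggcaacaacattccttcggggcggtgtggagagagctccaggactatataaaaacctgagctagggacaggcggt
Cnn2: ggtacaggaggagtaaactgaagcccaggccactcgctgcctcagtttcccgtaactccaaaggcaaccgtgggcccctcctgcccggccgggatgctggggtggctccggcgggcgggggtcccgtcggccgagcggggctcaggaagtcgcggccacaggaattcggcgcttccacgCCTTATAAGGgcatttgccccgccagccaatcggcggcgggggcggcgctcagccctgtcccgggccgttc

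Growth factor signals were arranged differently at the ends. For PDGF, FGF, EGF, Kit and LIF signals 20 of 40 fell and 6 rose (median -0.61). The PDGF receptors moved in opposite directions: Pdgfra read 1767, 1793, 2149.9 and 1749 on the adult arrays and 850.3, 902, 448, 929.6 and 759 on the stem arrays, a rise of 1.28 ± 0.18. Pdgfrb read 66.3, 24.5, 18.9 and 36.9 on the adult arrays and 619, 476, 345, 724 and 531 on the stem arrays, a fall of 3.44. The ligand Pdgfa fell by 3.15. The connective tissue growth factor Ccn2 fell by 6.03 and the lymphatic growth factor Vegfc by 4.06. Pleiotrophin, Ptn, rose by 4.65 ± 0.31 and the hepatocyte growth factor receptor Met by 2.33 ± 0.24. In the insulin-like growth factor axis Igf1 rose from 149 ± 60.5 to 2652 ± 328 and the binding protein Igfbp2 from 61.5 ± 17.0 to 4732 ± 1152. The clearance receptor Igf2r fell by 3.02 and the adaptor Irs2 by 1.18.

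Inhibin and activin subunits diverged in the same way. Inha, the alpha subunit that forms inhibin, rose from 49.4 ± 14.3 to 904 ± 68.9 (3.84 ± 0.18). Inhba, whose product pairs with itself as activin A, read 1441, 1465, 1252, 1335 and 1609.7 on the stem arrays and 8.09, 10.04, 8.57 and 7.41 on the adult arrays, a fall of 5.87. Over TGF-beta, activin and BMP signals 25 of 41 genes fell and 9 rose (median -0.99). Of 11 measured antagonists 8 fell and none rose (median -3.36). The BMP antagonist Grem1 fell by 6.16, from 1359 ± 175 to 3.32 ± 2.97, and the activin-binding Fstl3 by 4.89. Among ligands Tgfb3 fell by 3.40 and Bmp2 by 1.32, while Bmp6 rose by 2.31 ± 0.25. Amhr2, the receptor for anti-Müllerian hormone, rose by 3.11 ± 0.28.

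Wnt, hedgehog and Notch genes as a list lay near the background, with 10 of 50 higher and 11 lower (median -0.11), and 18 of the 50 had mean signals under 16 in both groups. Single genes moved far. Wnt5b (4.25 ± 0.20) and Wnt6 (4.12 ± 0.18) rose, Wnt5a fell by 2.17, and Dkk3 fell by 4.25. The hedgehog co-receptor Boc fell by 2.53, and the Notch target Hes1 by 1.58. Gli1, a target of hedgehog signalling, was low at both ends, 4.10 ± 3.62 in stem and 15.2 ± 13.9 in adult cells, and was not called (adjusted p = 0.0798). In progenitor and immature cells it read 301 ± 65.5 and 235 ± 74.5, so that the ends were alike only in lying below the middle. The mesenchymal factor Tcf21 also peaked in the middle, with 44.0 ± 10.5 and 77.3 ± 22.1 at the ends and 317 ± 147 and 344 ± 22.4 between. Unlike Gli1, it was called higher in adult than in stem cells, a call not kept in every setting.

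Among retinoid and arginine genes related members moved in opposite directions. Of 28 retinoid genes 15 rose and 4 fell (median 0.49): Aldh1a1 and Aldh1a3 (4.01 ± 0.22), which make retinoic acid, rose, and Aldh1a2, which makes it too, fell by 1.91. The binding protein Crabp2 fell by 1.46. In arginine, urea cycle and nitric oxide metabolism 10 of 21 genes rose and 5 fell (median 0.43). Ass1 rose and arginase 1, Arg1, fell from 175 ± 34.5 to 2.80 ± 2.0. Prodh, which degrades proline, rose by 3.47 ± 0.17 and Aldh18a1, which makes its precursor, fell by 2.65. Bcat1, the cytosolic transaminase of branched amino acids, fell by 5.74. The water channels Aqp9 and Aqp1 (a fall of 6.11) and the fatty acid binding proteins Fabp3 (2.46 ± 0.24) and Fabp5 (a fall of 3.65) likewise moved apart.

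**Figure D3:**
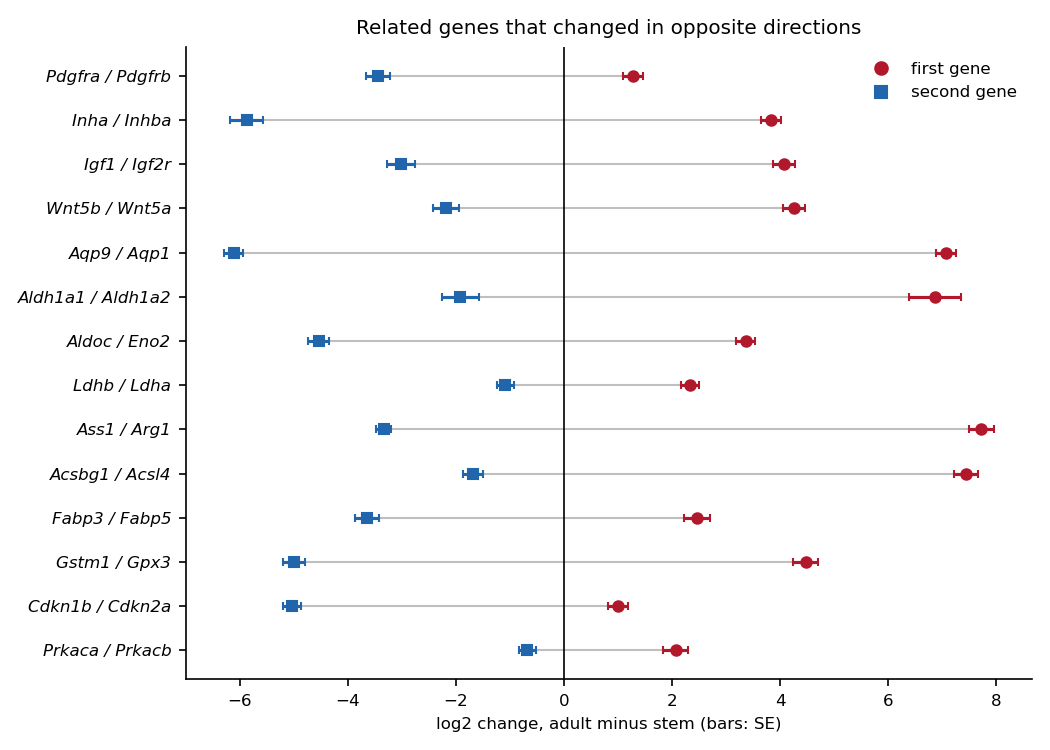
Change from stem to adult cells on the log2 scale (horizontal, bars are SE of the model) for 14 pairs of related genes; circles are the first and squares the second gene of each pair. In every pair the first gene rose and the second fell, and all 28 genes were called; the pairs were chosen after their values were seen.

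Stem cells had higher levels of cell division genes. Of 64 measured cell cycle genes 49 were lower in adult cells and 3 higher (median -1.0), and of 28 genes of G2 and mitosis 26 fell and none rose (median -1.36). Mki67, the marker of dividing cells, read 150.3, 196, 90.9, 197 and 167 on the stem arrays and 43.2, 30.3, 27.5 and 27.7 on the adult arrays (a fall of 1.84). Cyclin A2, Ccna2, fell by 2.54 and cyclin D1, Ccnd1, by 2.78. Inhibitors of the cycle were not simply higher in adult cells. Cdkn1b (0.997 ± 0.181) and Cdkn2c (1.12 ± 0.17) rose. Cdkn2a read 786, 480.4, 569.5, 484 and 763 on the stem arrays and 6.02, 2.81, 1.73 and 1.48 on the adult arrays. Cdkn2b fell by 4.31 and Cdkn1a by 2.5. The levels of Cdkn2a and Cdkn2b were thus high in the group with the higher Mki67.

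Positional transcription factors fell in 18 of 35 cases and rose in 2 (median -0.39), with 13 of the 35 under 16 in both groups. Pbx3, a partner of Hox proteins, fell by 3.16 and Hoxd10 by 2.32, whereas Hoxd8 of the same cluster rose by 0.51 ± 0.10. Tbx3 rose by 1.54 ± 0.20. Genes of bone, cartilage and fat did not mark either end as a list: 6 of 26 rose and 4 fell. None of 7 cartilage genes was called, but most of these had mean signals under 16 in both groups. Osteopontin, Spp1, fell by 2.44 and osteoprotegerin, Tnfrsf11b, by 3.09. The bone matrix gene Dmp1 rose by 3.32 ± 0.22 and the fat gene Cfd by 2.27 ± 0.44.

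Antigen presentation had the highest share of risers among the pathway lists, with 19 of 22 genes higher in adult cells and none lower (median 1.78). Of 14 genes of class I and peptide loading 13 rose. The immunoproteasome subunits Psmb9 (1524 ± 78.9 against 64.8 ± 10.1) and Psmb8 (3.62 ± 0.15) were even across the adult arrays. Class II genes were not. Cd74, the invariant chain, read 1469.8, 1081, 607 and 897 on the adult arrays and 11.3 to 17.3 on the stem arrays, and RT1-Da read 1194, 849.5, 374 and 644. Leukocyte markers were also higher in adult than in stem cells: 21 of 29 rose and none fell (median 1.13). Their summed signal was 4319, 3526, 2110 and 2889 on the adult arrays and 1422 to 1857 on the stem arrays. In both, adult replicate 1 was highest and replicate 3 lowest. In bone stem cells the leukocyte sums were 21507, 17304 and 16864 on replicates 1 to 3, far above the adult ones. The sums of 8 class II genes were 1343, 838 and 768 there, in the same order but below the 1517 to 4085 of adult cells. In immature cells the leukocyte sums were 7554, 5361, 5260 and 11184 and the class II sums 3053, 1673, 1827 and 3375. Immature replicates 4 and 1 were thus highest in both. In progenitor and stem cells the array with the highest leukocyte sum was not the one with the highest class II sum. Ptprc, found on nearly all leukocytes, read 55.4 ± 24.7, and the resident macrophage marker Cd163 read 21.6 ± 7.38 in adult cells. The part of leukocytes in the class II result was not tested.

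Cytokine genes went both ways, with 21 of 45 higher and 13 lower. Il18 rose by 3.57 ± 0.12 to 505 ± 46.7 and Ccl5 by 3.49 ± 0.36. In stem cells the receptor of interleukin 33, Il1rl1, stood at 1403 ± 422 and fell to 4.23 ± 2.13 in adult cells (a fall of 6.09). Il33 itself fell by 1.49, Il6 by 2.74, Ccl2 by 2.83 and the TWEAK receptor Tnfrsf12a by 4.62. Immediate early and heat shock genes were mixed as well (10 of 32 higher, 7 lower), with a median of 0.13 that turned to -0.0739 with quantile normalization. Jun (2.03 ± 0.25) and Zfp36 (2.71 ± 0.28) rose, Fosl1 fell by 2.87, and the small heat shock genes Hspb1 and Cryab fell by 4.48 and 5.50. Id2 rose by 1.27 ± 0.26 and Id3 fell by 1.69.

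Germ cell markers were higher in the adult samples, and markers of further cell types were mixed. Of 18 germ cell markers 13 rose and 1 fell (median 1.55). Their summed signal was 6098, 3669, 2213 and 2746 on the adult arrays and 359 to 406 on the stem arrays. Prm1, which packs sperm DNA, read 744, 808, 558 and 429 in adult cells, and Odf1, a sperm tail gene, 1865, 940.1, 369.7 and 807. Of 18 endothelial markers 11 rose and 3 fell. Their sums were 4030, 946, 1647 and 2747 in adult and 1074 to 1281 in stem cells, so that adult replicate 2 lay below every stem array. The 3 that fell were Eng, Ramp2 and Flt1. Eng (368 ± 30.8) and Ramp2 (295 ± 39.9) were the brightest of the 18 in stem cells and weigh on the stem sums. Cldn5 and the receptor Kdr ranked the adult arrays as the sums did, but without overlap with the stem arrays. Cldn5 read 1381, 207, 512 and 950.2 in adult cells and at most 28.5 in stem cells. Kdr read 331, 75.7, 139 and 279.9 in adult cells and at most 25.1 in stem cells. Pecam1 read 96.9 ± 22.3 in adult cells. Erythroid markers were mixed (3 of 10 rose, 2 fell), with Hbb at 647, 663, 247 and 609 in adult cells and at 2.27 to 4.32 in stem cells. Mast cell markers did not rise apart from Kit, which Leydig cells also express, and most of them had mean signals under 16 in both groups. Sertoli markers rose in 3 of 11, among them Cldn11 and, barely, Dhh (0.67 ± 0.26, adjusted p = 0.0424), a call lost under several alternatives. The part of these cells in the results was not tested. Adult replicate 1 had the highest leukocyte, endothelial, germ cell and smooth muscle sums of its group. Stem replicate 3 was the stem array least like the others. Without these 2 arrays, 11889 probe sets were called, 5920 higher and 5969 lower. This setting was not among those planned, and the 2 arrays were picked by different criteria. By correlation the adult array least like the others was replicate 2 (0.9751 to 0.9774).

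**Figure D4:**
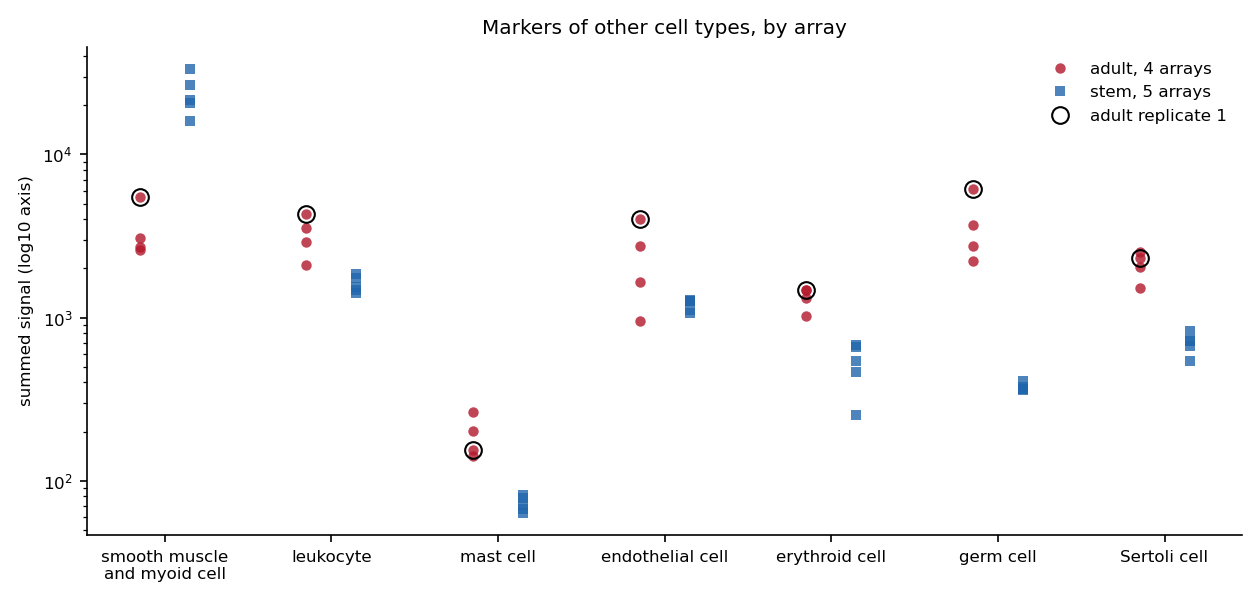
Summed signal (vertical, log10 axis) of the markers of 7 other cell types on each of the 4 adult arrays (circles) and 5 stem arrays (squares), with adult replicate 1 ringed. Germ cell sums were 2213 to 6098 in adult and 359 to 406 in stem cells, smooth muscle sums were higher in stem cells, and endothelial sums overlapped.

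The stages in between show where along the lineage these distances were covered; they share the stem or the adult arrays with the comparison of the ends and are given side by side. Some genes were at or near the adult level in progenitors. Cyp17a1, Hsd3b1, Lhcgr, Insl3 and Svs5 did not differ between adult and progenitor cells beyond the test (Svs5 2984 ± 598 in progenitors and 2727 ± 451 in adult cells, adjusted p = 0.731). Other genes rose along the way: Cd36 read 12.0, 275, 1377.5 and 2847 as means in stem, progenitor, immature and adult cells. A further kind rose late. Cyp2a1 read 7.72, 13.05, 22.9 and 870, Apoc1 4.58, 18.6, 15.2 and 569, and Aldoc 169, 179, 347 and 1862. From progenitor to adult cells these 3 rose by 4.86, 3.98 and 3.27 on the log2 scale, against 24.4% of probe sets called in that comparison.

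The falls had early and late members too. Tnc, Il1rl1 and Grem1 were under 10 on average in progenitors, and none differed further between adult and progenitor cells beyond the test. Postn read 2504, 1097, 459.8 and 12.1 through the 4 stages and Cdh11 1609, 213, 131 and 10.6. Igf2r (665, 505, 357 and 68.3) and Boc (149, 197, 191 and 11.9) fell late. Col3a1 was level at 3278, 3540.4 and 3059 up to the immature stage and 869 in adult cells. Mki67 was higher in progenitors, 408 ± 18.1, than at either end. Some genes read higher in the middle stages than at both ends, among them 3 taken as examples: Hbb stood at 4153 in progenitors against 542 in adult cells, Ccl5 at 2610.0 against 276 and Coro1a, a leukocyte gene, at 837 against 104.

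**Figure D5:**
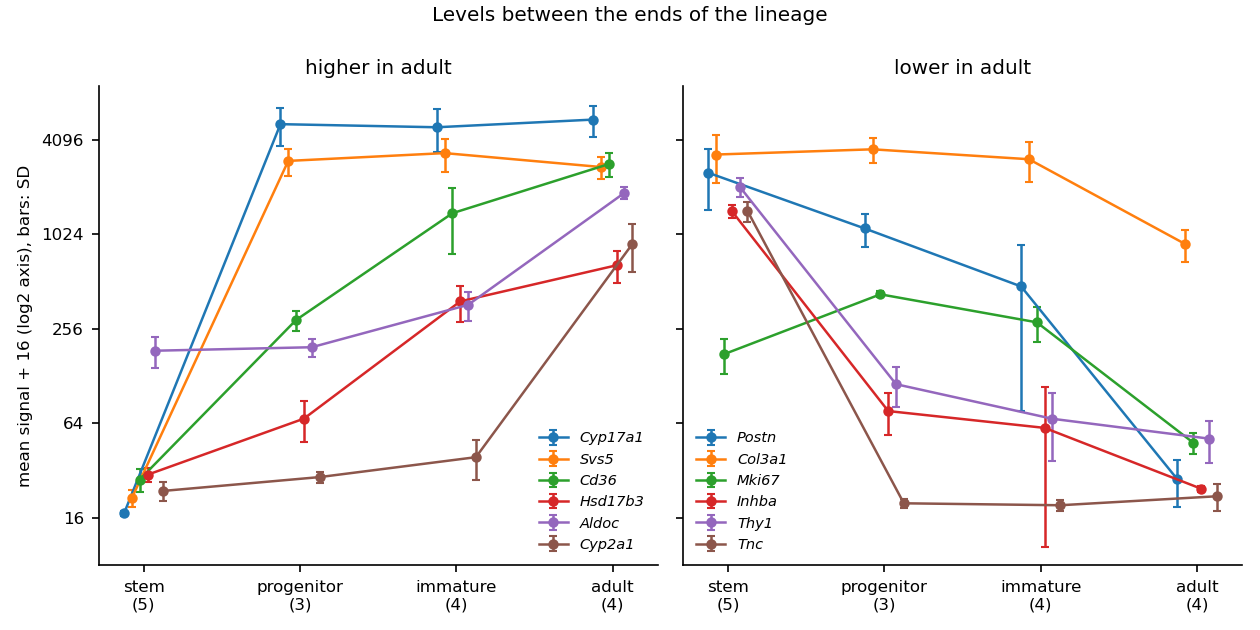
Mean signal plus 16 (vertical, log2 axis; bars are SD) of 6 genes that were higher and 6 that were lower in adult than in stem cells, through the 4 labelled stages, with the number of arrays in parentheses. Cyp17a1 and Svs5 were at their adult level in progenitors while Cyp2a1 and Aldoc rose between immature and adult cells; Tnc was low from progenitors on while Col3a1 fell only after the immature stage.

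The genes with the largest falls were also high in bone stem cells. Each of the 10 genes with the largest fall read above 500 on average in bone stem cells, Postn 3883 ± 56.8 and Grem1 3773 ± 425 among them. Other stem Leydig cell genes were lower in bone stem cells, in a comparison in which 18.5% of probe sets were called. Star read 15.9, 15.9 and 442 on the 3 bone stem arrays, the highest of which lay inside the range of the stem arrays, against a stem mean of 740 ± 480 (adjusted p = 0.00178). Nestin read 25.8 ± 4.04 against 242 ± 55.0 (adjusted p = 1.83e-07), and Hoxd10 13.4 ± 5.96 against 235 ± 41.7 (adjusted p = 1.2e-11). Dcn, Aldh1a2, Cdkn2b and Nr2f2 were lower there as well, by 2.65, 3.01, 2.71 and 1.72 on the log2 scale.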

How the data were processed

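RNA was hybridized to Affymetrix rat arrays, 1 array per sample; per the labels' protocols, 6 ug of total RNA was labelled. The authors' deposited intensity values are MAS5 signals from GCOS software, per the submitters' processing notes (versions not given in the sources); their trimmed mean is near 100.0 on every array. MAS5 scales each array and keeps low signals noisy, so low values carry little information. Of 31099 probe sets, 57 controls were left out; 20826 had 1 gene symbol, 436 several and 9780 none, and genes were named only from the first kind. Limma 3.58.1 (R 4.3.3) was fitted to log2(signal + 16) with 5 group means over 19 arrays, with a mean-variance trend and Benjamini-Hochberg adjustment over 31042 probe sets. The steps were tested on simulated data, where 90% of 2-fold changes were recovered. Only a small share of probe sets was changed there, all above the low end of the scale in stem cells. The 90% therefore does not apply to low signals. Genes were taken by their brightest probe set. The text names 19 lineage markers and, among eligible genes, the 10 largest rises and the 10 largest falls. It also names the 2 largest in each direction of each pathway list and the 2 largest of either direction in each marker list. Eligible genes were called, did not overlap between the groups and had a brighter-group mean at or above that group's median probe set. Symbols that start with LOC or RGD were passed over. Further examples were chosen after their values were seen. The 26 pathway and 7 marker lists (1052 of 1181 symbols measured) and the comparison itself were chosen with earlier results of these data known. Promoter windows are RefSeq's, build GRCr8. Alternatives covered normalization, the added constant, filters, the samples fitted, array weights, a replicate block and each array left out.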

Additional observations from a re-analysis of the deposited data

Results flagged for a closer look

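Among 370 gene and group combinations, 27 had an array that stood far from the others of its group, where chance gives about 1 in 20. Most were on stem replicate 3 (8), stem replicate 1 (6), and adult replicates 2 and 3 (5 each). In stem cells, replicate 3 was low for Aldh18a1 (346.9, others from 438.2 to 457.1) and Pdgfra (448.0), and high for Aldh1a1 (49.1, others up to 12.1), Cldn5 (28.5), Ghr (46.4), Gpx7 (1080.4), Mt2A (241.4) and Nr5a1 (96.3). Replicate 1 was low for Ccl2 (444.1, others from 1404 to 1656), Ccnd1 (578.4), Nes (146.6) and Slc2a3 (372.7), and high for Cdkn1b (327.6) and Laptm5 (16.7). Replicate 4 was low for Fabp5 (1506).

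In adult cells, replicate 3 was low for Hbb (246.9, others from 609.0 to 662.8), and high for Hsd11b1 (5016), Igf1 (3141), Pdgfra (2150) and Tspo (3665). Replicate 2 was low for Jun (1214), Cdkn2c (137.8) and Prkar2b (1063), and high for Aqp1 (12.8) and Acta1 (2.24, within the range of low signals). Replicate 1 was high for Dhh (48.9) and Col4a5 (968.3).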

How the results depend on the processing

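The count of called probe sets, 12978 in the fit reported, was 11413 to 15565 under the other settings that keep every array or leave out 1, and each array left out in turn gave 12059 to 12746 (5992 to 6496 higher, 5831 to 6351 lower). Requiring also a 2-fold change left 5473 probe sets, 2667 higher and 2806 lower. Higher calls were 50.9% of all calls, 49.2% with quantile normalization and 46.5% with median centring, which moved the median change of all probe sets from 0.02 to -0.00286 and -0.0259. Replicate numbers are shared by the groups, but same-numbered adult and stem arrays did not deviate together (correlations of deviations -0.0304 to 0.164), so the numbers were not taken as pairs; with the replicate block, 11978 probe sets were called over all arrays (5985 higher, 5993 lower) and 12006 with replicates 1 to 4 alone. Of 181 called genes named, 175 kept their call in each of the 21 settings that could measure them, the 2-fold minimum not among these, and none changed direction; the others are Cyb5a, Dcn, Dhh, Gja1, Nr2f2 and Tcf21. The median of the immediate early and heat shock genes turned from 0.13 to -0.0739 with quantile normalization; the cause was not tested. In adult cells 37.5% to 43.9% of probe sets, and in stem cells 41.9% to 45.1%, had signals under 16, which limits what can be said of low genes, and the files give no detection calls. The ratio of 3' to 5' beta-actin probes was 1.51 to 2.29 in adult and 1.03 to 1.84 in stem samples, and its part in the results was not tested.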
